A study of Mus musculus with 8 samples.

Results

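The 10 genes described here encode the machinery with which a macrophage loads peptides on MHC class II molecules. They comprised the classical chain genes H2-Aa, H2-Ab1 and H2-Eb1, the invariant chain gene Cd74, the genes of the peptide exchange factor H2-DM (H2-DMa, H2-DMb1 and H2-DMb2), the genes of its inhibitor H2-O (H2-Oa and H2-Ob), and Ciita, the gene of the class II transactivator. They were taken by gene name from the deposited count tables and are 10 of 26939 genes. No measured value entered that rule, but the members were chosen with earlier results of these data known. TAMs, or tumor-associated macrophages (live cells gated on CD45, CD11b and F4/80 and lacking Gr-1), came from orthotopic EO771 breast tumors of female C57BL/6J mice aged 8 to 14 weeks, 21 days after inoculation. Poly-A RNA was sequenced in 8 libraries, 2 in each of 4 groups.

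The groups were wild-type (WT) or Unc93b1 3d/3d mice, called 3d/3d below, each as controls or under αMARCO. The 3d allele is a germline point mutation of UNC93B1, the chaperone that carries nucleic acid sensing TLRs to endosomes, so every cell of these mice carried it. Mice of both αMARCO groups received 100 µg of the rat IgG1 antibody clone ED31 against the scavenger receptor MARCO on days 3, 6, 9 and 12. The labels call the control mice untreated while the methods name an isotype antibody, so the injection of the control mice is not settled here. For each control sample TAMs of 3 mice were pooled. The genotype field of 3d/3d control replicate 2 reads 3d/4d, although its title reads 3d/3d. Nothing states whether the 2 libraries of a group came from separate sorts, so p-values measure only the spread between these libraries.

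MHC class II molecules are alpha-beta dimers that assemble in the endoplasmic reticulum around the invariant chain CD74. In endosomes the invariant chain is cut down to a short peptide, CLIP, which H2-DM exchanges for peptides of endocytosed proteins, while H2-O binds H2-DM and restrains it. Expression of the classical chain, Cd74 and H2-DM genes depends on CIITA, a coactivator that does not bind DNA itself. It docks on factors at the X and Y boxes of class II promoters. In macrophages Ciita is classically induced by interferon gamma, whereas H2-O is known mainly from B cells, thymic epithelium and dendritic cells. C57BL/6 mice carry an inactive I-E alpha gene, so the product of H2-Eb1 has no partner chain in this strain.

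All members but 2 lie on chromosome 17 in the MHC, within 224 kb (34092340 to 34316199, GRCm38). In that interval H2-Oa (34092340 to 34095234), H2-DMa (34135182 to 34139101), H2-DMb2 (34143307 to 34151553) and H2-DMb1 (34153072 to 34160230) are followed by H2-Ob (34238903 to 34245907), H2-Ab1 (34263209 to 34269418), H2-Aa (34282744 to 34287827) and H2-Eb1 (34305877 to 34316199). H2-Aa lies on the minus strand and the other genes of the interval that are members on the plus strand. Ciita lies on chromosome 16 (10480059 to 10528418, plus strand) and Cd74 outside both chromosomes.

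The promoters below are shown because the X and Y boxes are the sequences through which CIITA acts on class II promoters. For 7 of the 10 members, 8 RefSeq promoter windows (GRCm38.p6, 250 bases before to 50 after the start) were matched. Each line gives 70 bases of the window, 5′ to 3′ on the strand of the gene, with matches to an X box core (AGNNAC followed directly by NNATG) and a Y box (ATTGG) in capitals. H2-Eb2, a class II beta gene that is no member, is shown for comparison.
H2-Eb1 (chr17:34305757-34305826, plus strand): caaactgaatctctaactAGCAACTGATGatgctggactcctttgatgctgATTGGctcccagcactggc
H2-Ob (chr17:34238795-34238864, plus strand): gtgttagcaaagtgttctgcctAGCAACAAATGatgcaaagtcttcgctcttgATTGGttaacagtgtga
H2-DMb1 (chr17:34153081-34153150, plus strand): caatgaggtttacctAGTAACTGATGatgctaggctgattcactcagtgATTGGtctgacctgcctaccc
H2-DMb2 (chr17:34145110-34145179, plus strand): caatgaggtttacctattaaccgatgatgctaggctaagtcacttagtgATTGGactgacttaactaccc
H2-Aa (chr17:34287864-34287933, minus strand): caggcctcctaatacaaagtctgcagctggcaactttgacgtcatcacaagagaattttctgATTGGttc
H2-Eb2 (chr17:34325525-34325594, plus strand): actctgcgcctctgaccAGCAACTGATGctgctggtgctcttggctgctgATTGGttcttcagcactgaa

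Both boxes were searched on both strands. The X box core was found in 3.09% of 32851 RefSeq promoters and the Y box in 37.4%. An X box core followed after 15 to 30 bases by a Y box on the same strand occurred in 21 promoters, or 0.0639%, and 4 of these belong to H2-Eb1, H2-Ob, H2-DMb1 and H2-Eb2. The spacing was 22 bases in H2-Eb1, 20 in H2-Ob and 23 in H2-DMb1. The windows of H2-DMb2 and H2-Aa hold the Y box without a match to these X box letters. So does an H2-DMa window (34125268 to 34125567), which lies upstream of the deposited H2-DMa start at 34135182. The H2-DMb1 and H2-DMb2 lines shown lie inside the deposited genes, which start at 34153072 and 34143307. The H2-Oa window holds both motifs, at 141 and 43 bases before the start, farther apart than the spacing searched. The core of the interferon-stimulated response element (GAAANN followed directly by GAAA) was in 3.44% of promoters and in none of the members' windows.

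The libraries held 15182618 to 26411936 counts. Unc93b1, in which the 3d change is a point mutation that mRNA levels do not check, had 718 to 965 CPM (counts scaled to the normalized size of each library) in the WT libraries and 539 to 659 CPM in the 3d/3d libraries. Macrophage markers were high in every library, with 8 genes summing to 8113 to 11761 CPM. Of 10 B cell markers, Cd79b reached 41.2 CPM, and no other exceeded 3.01 CPM in any library. Replicate 2 of 3d/3d αMARCO stood apart: over 9054 genes the SD of the log2 ratio of the replicates was 0.655 in its group and 0.168 to 0.235 in the other groups. In it, genes under 2000 bases lay 0.753 log2 above genes over 5000 bases by median, relative to each gene's mean over the libraries, against 0.176 and 0.269 in the WT controls, −0.189 and −0.126 in the 3d/3d controls, −0.333 and −0.236 in WT αMARCO and −0.326 in its own replicate. Length dependence thus also separated the groups, short genes being relatively higher in WT control. Mitochondrial counts were 1.03 to 1.25% in the controls and 1.39 to 2.74% under αMARCO. All members but H2-Ob and Ciita are under 2000 bases long. Results that rest on this library are given below with and without it.

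The members spanned a wide range of abundance. Per kilobase of gene, Cd74 was the highest, at 2816 to 9140 RPKM, and ranked 3 to 5 among all genes in every library. H2-Eb1 ranked 6 to 12, H2-Ab1 8 to 19 and H2-Aa 15 to 28. H2-DMb1 (135 to 390 RPKM) and H2-DMa (101 to 339 RPKM) came next. H2-DMb2 had 15.4 to 40.2 RPKM, Ciita 14.03 to 24.9, H2-Ob 2.51 to 10.05 and H2-Oa 0.625 to 5.70. Within a library the order was the same in all 8, except that H2-DMb2 exceeded Ciita in 4 and fell below it in 4. Neighbours in this order overlapped in their ranges over the libraries, other than H2-Aa over H2-DMb1, H2-DMa over H2-DMb2, and Ciita over H2-Ob. Together the 10 genes took 1.07 to 1.75% of all counts in 7 libraries and 2.94% in 3d/3d αMARCO replicate 2.

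The classical chains, Cd74 and the pair of H2-DMb1 and H2-DMa kept closer proportions than the other pairs given below, though each ratio varied between libraries. The ratio of H2-Ab1 to H2-Aa, per kilobase, was 1.33 to 1.55 in 7 libraries and 1.82 in 3d/3d αMARCO replicate 2. H2-Eb1 stood at 1.19 to 1.48 times H2-Ab1, lowest in the 3d/3d controls and highest in WT αMARCO. Cd74 amounted to 0.689 to 0.793 of the sum of H2-Aa, H2-Ab1 and H2-Eb1 in all 8. H2-DMb1 stood at 1.15 to 1.57 times H2-DMa. The chains of H2-O did not keep so close a proportion, with H2-Ob at 1.70 to 7.11 times H2-Oa, the scarcest member. Nor did the peptide exchange factor and its inhibitor keep one to each other. H2-DMa was 18.1 and 22.3 times H2-Ob in the WT controls and 26.6 and 28.4 times in WT mice given αMARCO. It was 36.7 and 56.1 times H2-Ob in the 3d/3d controls and 44.8 and 76.6 times in 3d/3d mice given αMARCO. These ratios did not overlap between any pair of groups except the 3d/3d groups, but the share of other gene pairs doing so was not computed. Of single genes, 33.3% lay without overlap higher in WT than in 3d/3d control. Under αMARCO in WT 36.2% lay lower without overlap. H2-DMa (1641 bases) and H2-Ob (3153 bases) also differ in length, and length dependence differed between the groups. Against Ciita, H2-Ab1 was 74.8 to 111 times as high in 7 libraries and 232 times in 3d/3d αMARCO replicate 2.

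H2-DMb1 and H2-DMb2 are close copies, and their values are less certain for it. Their longest transcripts aligned over 1211 bases with 94.8% identity and shared a run of 221 identical bases, so reads from that run cannot be assigned by sequence. How reads with several matches were counted is not given in the sources used here. For the other chain pairs the longest shared run was 44 bases. In the GENCODE M21 annotation antisense genes overlap H2-Eb1 (Gm20513, 1 to 24 counts per library), H2-Oa (BC051537, 0 to 4 counts) and Ciita (Dexi, 278 to 577 counts), and the strand setting of the counting is not given. By the deposited positions Gm20513 ends before H2-Eb1 starts. H2-Ea-ps, the I-E alpha locus of this strain, had 0 to 2 counts per library, while H2-Eb1 had 30091 to 101303.

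**Figure D1:**
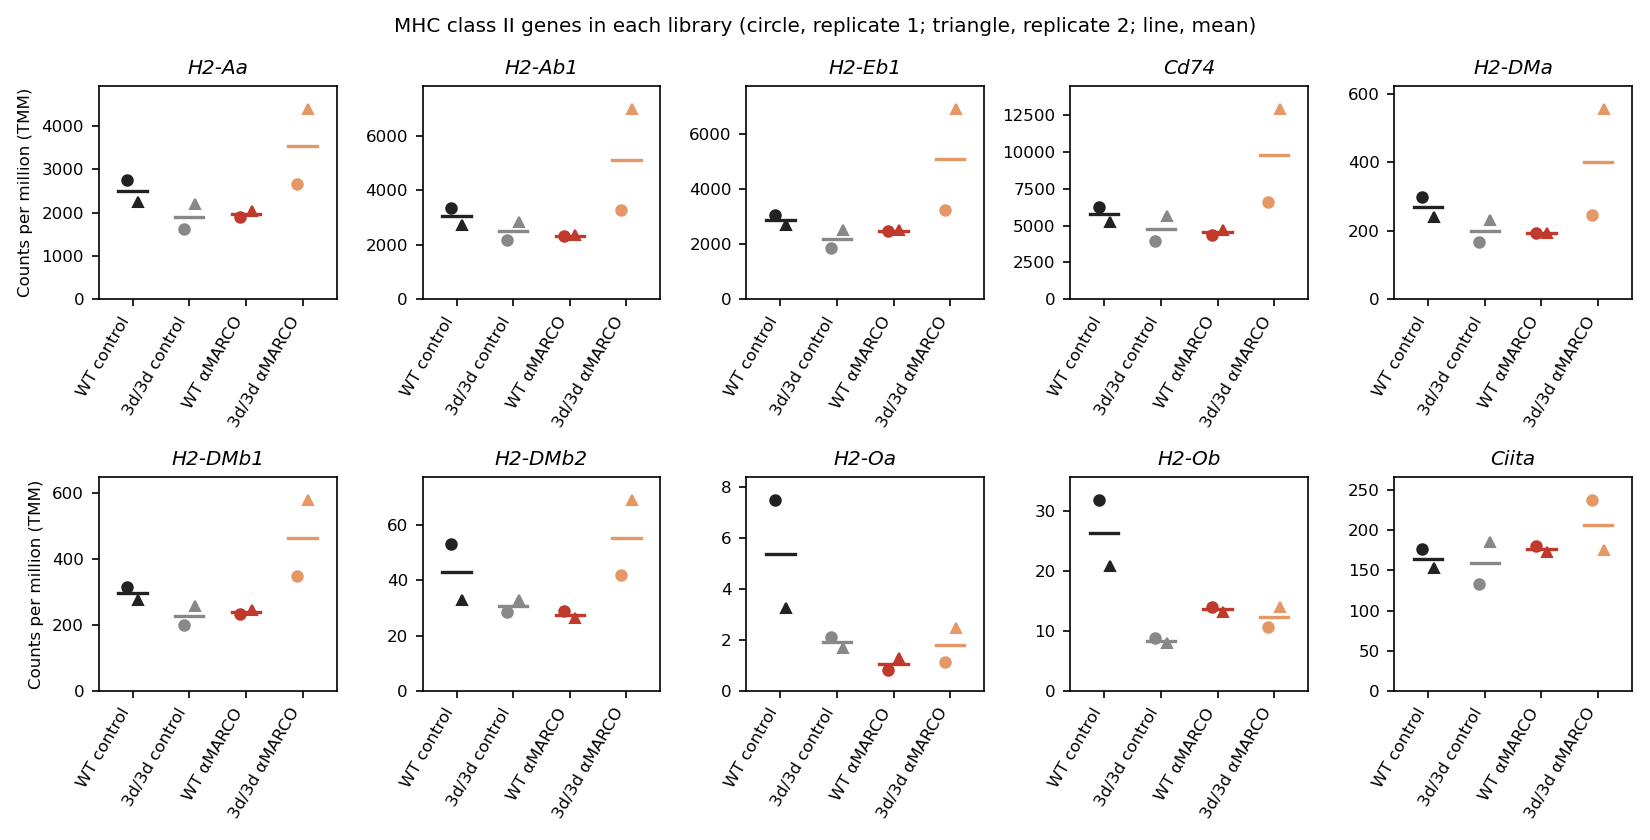
Normalized level of each of the 10 genes in CPM (vertical axes from 0, each gene on its own scale) in the 4 groups (horizontal axis); circles are replicate 1, triangles replicate 2 and lines the mean of both. H2-Oa and H2-Ob were highest in the WT control libraries, whereas the classical chains, Cd74 and the H2-DM genes were highest in 3d/3d αMARCO replicate 2.

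Over the 8 libraries the classical chains, Cd74, H2-DMa and H2-DMb1 had close profiles, and H2-DMb2 a less close one. H2-Oa, H2-Ob and Ciita each had another. Each gene was centred on its own mean of log2(CPM + 1). Compared with the mean profile of H2-Aa, H2-Ab1, H2-Eb1 and Cd74, H2-DMb1 differed by 0.0683 (root mean square, log2), H2-DMa by 0.0875 and H2-DMb2 by 0.187. Ciita differed by 0.453, H2-Ob by 0.663 and H2-Oa by 0.708. Of the 9045 other genes with a mean of at least 10 CPM, those closest to the profile were Ppfia4 (0.104), Fopnl (0.142), Rpl12 (0.143), Aprt (0.148) and Rpl9-ps4 (0.153). All were farther than H2-DMa and H2-DMb1 but nearer than H2-DMb2. H2-Aa, H2-Ab1, H2-Eb1 and Cd74 make up the mean profile, so their own closeness to it is no result. Those closest to Ciita were Mios (0.0904), Phc1 (0.116), Trub1 (0.119), Tab1 (0.126) and Mbnl1 (0.127). All 8 points of such a profile come from the same libraries and share their depth and length dependence.

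**Figure D2:**
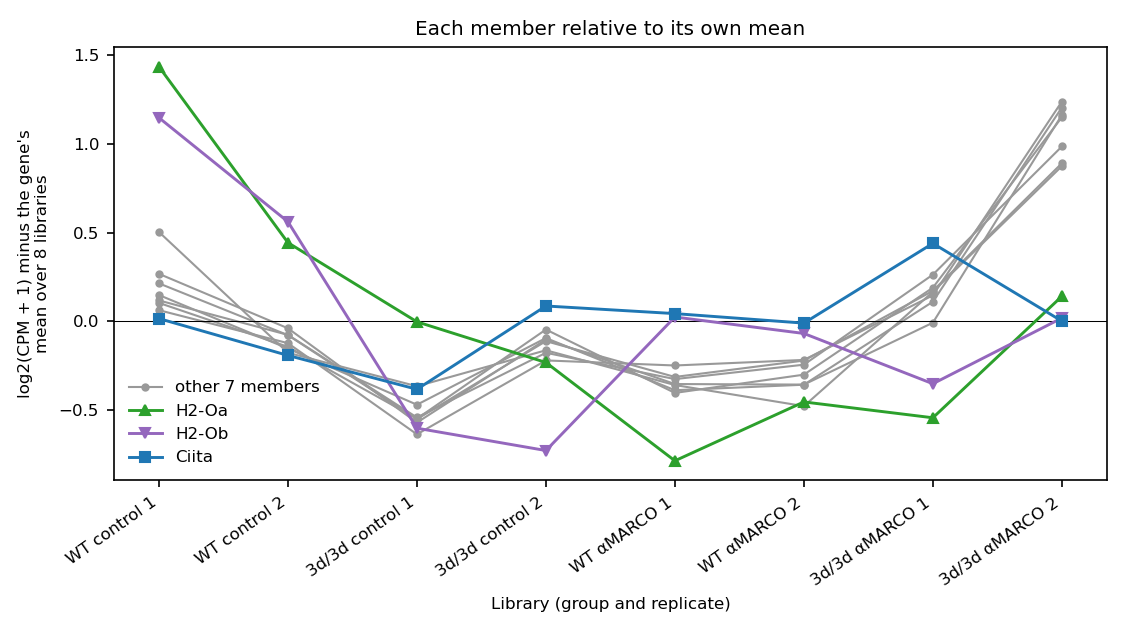
Log2(CPM + 1) of each gene minus its own mean over the 8 libraries (vertical axis) by library (horizontal axis); the lines join values of a gene and mark no order of libraries. The 7 members in grey lie near each other, except H2-DMb2 in WT control replicate 1 (0.50, against 0.063 to 0.27 for the others in grey). H2-Oa and H2-Ob peak in the WT control libraries. Ciita stays near 0 in 3d/3d αMARCO replicate 2, where the grey lines peak.

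The first comparison asked whether TAMs without endosomal TLR function differed in class II expression in control mice, sampled on the same day as the treated mice. Both chains of H2-O were higher in WT control TAMs, about 3-fold, and the classical chains, Cd74, H2-DM and Ciita were not called. H2-Ob, the beta chain of H2-O, had 31.7 and 20.8 CPM in WT control and 8.72 and 7.91 CPM in 3d/3d control. Both WT values thus lay above both 3d/3d values, and the replicates within each genotype differed less than the genotypes. The difference (WT minus 3d/3d) was 1.64 on the log2 scale (SE 0.21, adjusted p = 0.00166, edgeR quasi-likelihood test), a 3.12-fold difference, and was called under all 12 alternatives tried.

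H2-Oa, the alpha chain, was the scarcest member, with 142 and 59 counts in WT control and 34 and 33 in 3d/3d control. This corresponds to 7.49 and 3.27 CPM against 2.13 and 1.67 CPM, so the groups did not overlap but the WT replicates differed more than 2-fold. The log2 difference was 1.49 (SE 0.42, adjusted p = 0.0395), and it was the less stable call: it fell to 0.78 with an adjusted p of 0.31 without WT control replicate 1, and it was lost without either 3d/3d control library (adjusted p 0.112 and 0.175). It was also lost in a model of all 8 libraries (adjusted p 0.225) and with length and GC correction (1.39, adjusted p 0.0501). A gene was called where its adjusted p did not exceed 0.05 and its log2 difference was 0.5 or more in size. This held for 2 of the 10 members against 13.0% of the 15600 genes tested, and both were higher in WT, as were 6.58% of genes.

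The remaining 8 members were all fitted higher in WT control, but by less, and the tests did not separate them from the replicate spread. H2-Aa had 2747 and 2244 CPM in WT control against 1616 and 2192 in 3d/3d control. The lower WT value was barely above the higher 3d/3d value, and the log2 difference of 0.37 (95% interval 0.0078 to 0.74, adjusted p = 0.141) was not called. H2-Ab1 (0.26), H2-Eb1 (0.37), Cd74 (0.24), H2-DMa (0.42), H2-DMb1 (0.36) and H2-DMb2 (0.46) had adjusted p-values of 0.0867 to 0.352. Without WT control replicate 2 the calls rose from 2 to 5 members (H2-Oa, H2-Ob, H2-Aa, H2-DMa and H2-DMb2), against 13.3% of genes in that fit, and without 3d/3d control replicate 2 they also numbered 5, against 11% (1817 of 16482), so the smaller differences depend on which library is kept. In all, 6 members had groups that did not overlap, with WT higher, as had 33.3% of all genes tested.

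Ciita had 177 and 153 CPM in WT control and 134 and 186 in 3d/3d control. The groups overlapped fully, and the log2 difference of 0.03 (95% interval −0.33 to 0.39) leaves room for a difference in either direction. The bulk libraries cannot tell fewer cells of a type from less RNA per cell, for these or any other members.

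**Figure D3:**
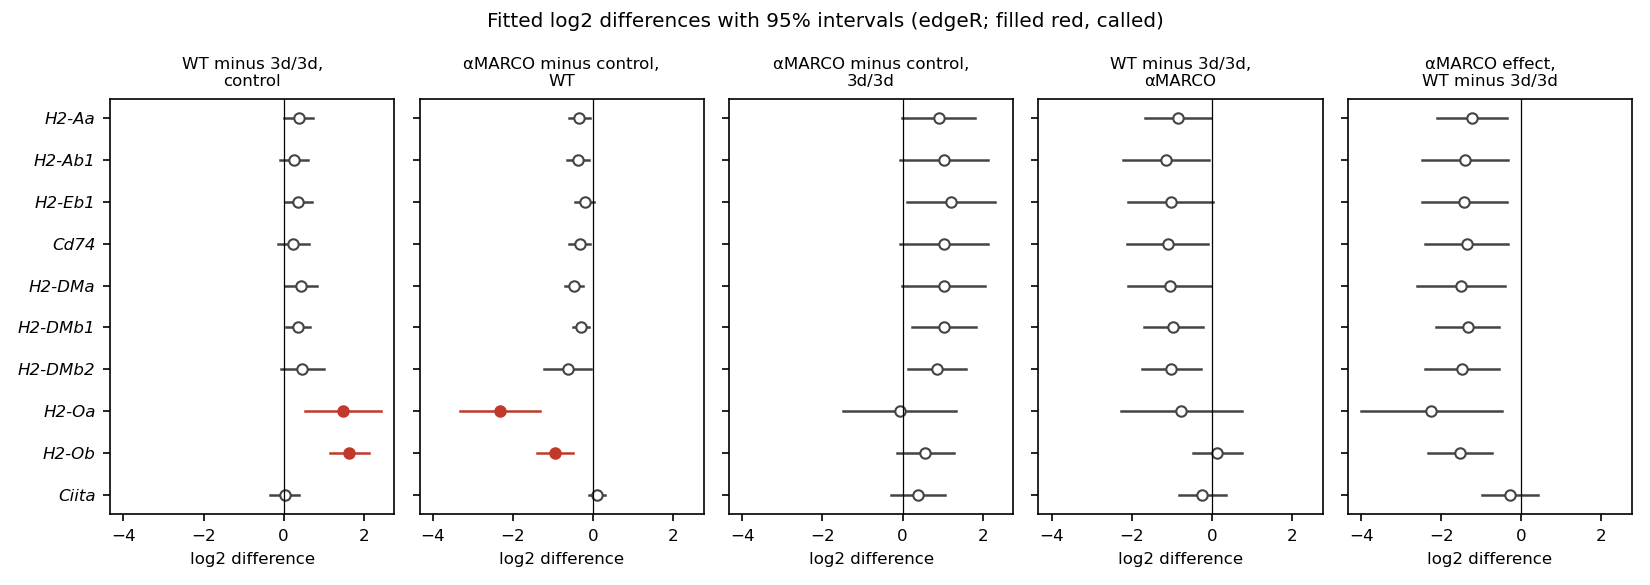
Fitted log2 differences (horizontal axes) with 95% intervals for the 10 genes (vertical axis) in the 4 pairwise comparisons and, at the right, for the αMARCO effect in WT minus that in 3d/3d; filled red points passed the call. Only H2-Oa and H2-Ob passed, higher in WT control than in 3d/3d control and lower in WT αMARCO than in WT control, and the intervals were widest where 3d/3d αMARCO entered.

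The second comparison asked what αMARCO did in WT TAMs. Again H2-O moved most. H2-Oa had 0.821 and 1.29 CPM in WT αMARCO, from 17 and 33 counts, against the 7.49 and 3.27 CPM of WT control. Both treated values lay below both control values, and H2-Oa fell by 2.33 on the log2 scale (SE 0.44, adjusted p = 0.00434), to 0.199 of the control level. H2-Ob had 14.01 and 13.1 CPM in WT αMARCO, between the levels of WT control and 3d/3d control, with nearly equal replicates. It fell by 0.95 (SE 0.19, adjusted p = 0.00637). The H2-Ob call was lost without either WT αMARCO library (adjusted p 0.0529 and 0.0652), and both calls were lost when all 8 libraries shared an estimate of the spread (adjusted p 0.0869 for H2-Oa and 0.0999 for H2-Ob).

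The classical and H2-DM genes were lower in WT αMARCO by smaller amounts. H2-DMa had 194 and 193 CPM in WT αMARCO against 298 and 241 in WT control, a fitted log2 difference of −0.48 (adjusted p = 0.0066). H2-Ab1 had 2314 and 2364 CPM against 3357 and 2724, a log2 difference of −0.38 (adjusted p = 0.0343). H2-Aa (−0.34, adjusted p = 0.0468) and H2-DMb1 (−0.31, adjusted p = 0.0225) also passed the p-value but, like the former, not the fold threshold. Cd74 had 4391 and 4715 CPM against 6241 and 5257 (−0.34, adjusted p = 0.0553). H2-DMb2 (−0.64, adjusted p = 0.0889) and H2-Eb1 (−0.20, adjusted p = 0.164) did not pass the p-value. The H2-DMb2 call depended on the method, since DESeq2 called it (−0.62, adjusted p = 0.011).

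Thus 2 of 10 members were called, both lower, against 20.7% of the 15630 genes tested in either direction and 11.8% called lower, and 6 of 10 passed the p-value in the lower direction whatever the fold, against 19.0% of genes. With length and GC correction 3 of the 6 still passed (H2-DMa, H2-Oa and H2-Ob), while H2-Aa, H2-Ab1 and H2-DMb1 had adjusted p-values of 0.0682, 0.0888 and 0.068. For 9 of 10 the treated values both lay below the control values, as for 36.2% of all genes. Ciita was the exception, with 180 and 174 CPM in WT αMARCO against 177 and 153 in WT control, overlapping, and a log2 difference of 0.10 (95% interval −0.095 to 0.30). Without WT control replicate 1 the log2 differences of H2-Oa and H2-Ob were −1.62 and −0.62, both still called. Without WT control replicate 2 the called members were 5 (H2-Oa, H2-Ob, H2-DMb2, H2-DMa and H2-Ab1), against 23.6% of genes in that fit.

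The third comparison, of αMARCO with control in 3d/3d TAMs, rested on a pair of libraries that disagreed. H2-Ab1 had 3270 CPM in 3d/3d αMARCO replicate 1 and 6982 in replicate 2, against 2187 and 2837 in 3d/3d control. Cd74 had 6623 and 12887 CPM against 3970 and 5625. H2-DMa had 246 and 556 CPM against 167 and 231. Both treated libraries thus lay above both controls, and the gap between the treated replicates was larger than that between replicate 1 and the controls.

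The fitted log2 differences were 0.90 for H2-Aa, 1.04 for H2-Ab1, 1.22 for H2-Eb1, 1.04 for Cd74, 1.03 for H2-DMa, 1.03 for H2-DMb1 and 0.86 for H2-DMb2. None was called, with an adjusted p of 0.823 for each. By edgeR 0.0% of the 15428 genes tested were called, while 744 (4.82%) had an unadjusted p of at most 0.05 and DESeq2 called 60, none of them members. In 8 members the treated values lay above the control values without overlap, as in 18.6% of genes. H2-Ob had 10.6 and 13.95 CPM against 8.72 and 7.91 (log2 difference 0.57, 95% interval −0.14 to 1.29). H2-Oa had 1.15 and 2.46 CPM against 2.13 and 1.67, so it overlapped the controls, with a log2 difference of −0.07.

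Ciita went the other way between the treated replicates, with 237 CPM in replicate 1 and 175 in replicate 2. In replicate 2 the 7 classical, invariant chain and H2-DM genes stood 0.72 to 1.17 log2 above replicate 1, while Ciita stood 0.44 below it on the same scale. Gene length moved with this contrast: Ciita measures 9535 bases and the classical and H2-DM genes 1184 to 1874 bases. When gene length and GC content were corrected per library, the 7 classical, invariant chain and H2-DM genes kept log2 differences of 0.78 to 1.17, and Ciita had 0.48.

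Leaving out either treated library showed what each contributed. Without replicate 1 the log2 differences of the same 7 genes were 1.16 to 1.66, all called together with H2-Ob (0.75), and 34.1% of all genes were called. Without replicate 2 they were 0.34 to 0.64, and H2-Eb1 (0.58, adjusted p = 0.0416) and H2-DMb1 (0.64, adjusted p = 0.00265) were called, together with Ciita (0.60, adjusted p = 0.018), against 3.41% of all genes. In these fits the lone treated library is assumed to vary as the controls do. The direction was higher under αMARCO for these 7 genes whichever library was kept, and the log2 size differed more than 2-fold.

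**Figure D4:**
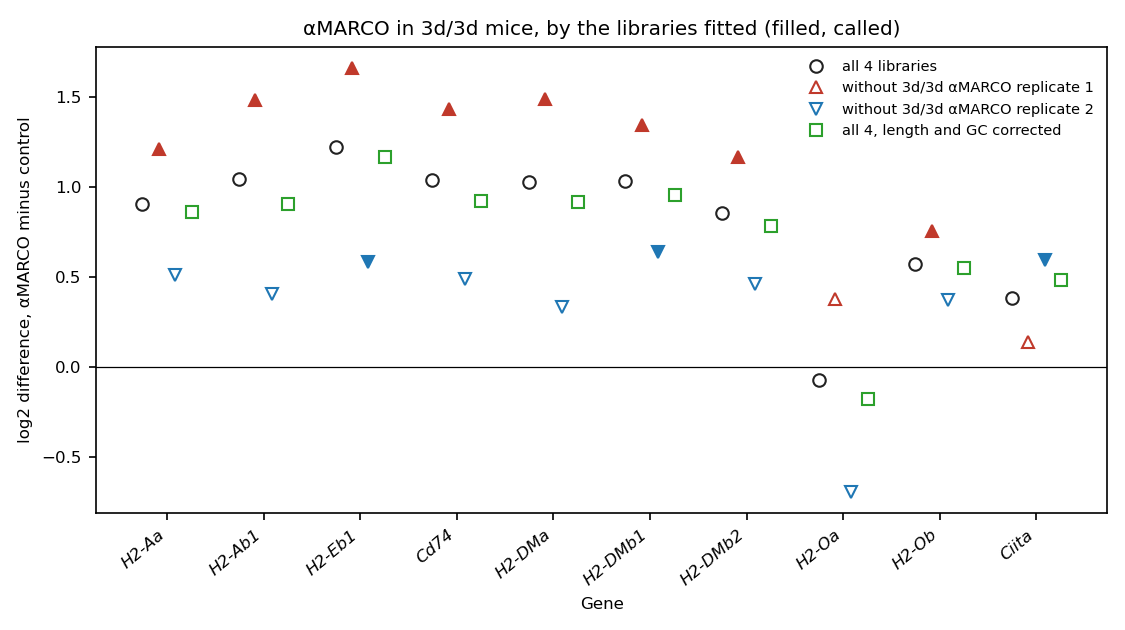
Log2 difference between αMARCO and control in 3d/3d TAMs (vertical axis) for each gene (horizontal axis) with all 4 libraries, without either αMARCO library, and after correcting for length and GC content of the genes; filled symbols were called. The 7 classical, invariant chain and H2-DM genes lie above 0 in all 4 settings, between 0.34 and 0.64 without replicate 2 and between 1.16 and 1.66 without replicate 1.

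The fourth comparison set the genotypes against each other under αMARCO. H2-Eb1 had 2471 and 2526 CPM in WT αMARCO against 3250 and 6928 in 3d/3d αMARCO, and H2-DMb1 had 233 and 246 against 351 and 579. All WT values lay below all 3d/3d values, and the order of the genotypes was thus the opposite of that in the controls. Differences (WT minus 3d/3d) were −0.85 to −1.14 for the 7 classical, invariant chain and H2-DM genes. Their adjusted p-values were 0.587 to 0.709, and 0.0% of 15722 genes were called by edgeR. At an unadjusted p of at most 0.05 there were 1076 genes (6.84%), and DESeq2 called 214, none of them members. In these 7 members the groups did not overlap, as in 19.7% of genes in that direction.

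Without 3d/3d αMARCO replicate 2 the differences were −0.38 to −0.63, and H2-Ab1 (−0.51, adjusted p = 0.0146), Cd74 (−0.57, adjusted p = 0.0159), H2-DMb1 (−0.58, adjusted p = 0.000181) and H2-DMb2 (−0.63, adjusted p = 0.000675) were called, against 7.45% of all genes. Without replicate 1 there were 8 called members, the 7 and H2-Oa, against 38.6% of all genes. H2-Ob, which separated the genotypes in the controls, had 14.01 and 13.1 CPM in WT αMARCO and 10.6 and 13.95 CPM in 3d/3d αMARCO. These values overlapped, with a log2 difference of 0.14 (95% interval −0.48 to 0.75). Ciita differed by −0.24 (95% interval −0.83 to 0.36).

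Whether the αMARCO effect itself differed between genotypes was tested in a model of all 8 libraries. The effect in WT minus the effect in 3d/3d was −1.24 to −1.50 for the 7 classical, invariant chain and H2-DM genes, −1.52 for H2-Ob, −2.25 for H2-Oa and −0.28 for Ciita. All but Ciita had a 95% interval below 0, yet no member was called: the adjusted p was 0.31 for H2-Ob, 0.318 for 8 others and 0.62 for Ciita. edgeR called 0.0% of 16620 genes, while 2549 (15.3%) had an unadjusted p no higher than 0.05, and DESeq2 called 211, among them H2-Ob and H2-DMb1. Without 3d/3d αMARCO replicate 2 edgeR also called H2-Ob (−1.34, adjusted p = 0.0248) and H2-DMb1 (−0.96, adjusted p = 0.0126), against 3.45% of genes, and without replicate 1 it called 9 members, against 36.4%. In 8 members both αMARCO values lay below the controls in WT and above them in 3d/3d, as in 4.15% of genes. The comparisons within each genotype and each treatment share libraries and are not independent of each other.

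Cell type markers were read beside these values. Summed over 8 genes, mature dendritic cell markers reached 1185 and 720 CPM in the WT controls against 224 and 249 in the 3d/3d controls. With αMARCO the sum was 325 and 406 CPM in WT mice and 305 and 322 in 3d/3d mice. Most of these sums was Cd83, with 260 and 318 CPM in WT αMARCO and 214 and 252 in 3d/3d αMARCO. Cd83 had 304 and 269 CPM in WT control and 131 and 137 in 3d/3d control. By this sum the WT control libraries thus lay above all others, with replicate 1 above replicate 2. Of the 7 genes of that list that were tested, 3 were called higher in the WT than in the 3d/3d controls, and 4 were called lower under αMARCO in WT. Il4i1 was near 0 in every library. Ccr7, the homing receptor of migratory dendritic cells, had 214 and 119 CPM in WT control and at most 16.8 in any other library.

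Conventional dendritic cell markers summed to 239 and 162 CPM in WT control and 55.5 to 84.5 in the other libraries, and 6 of 9 were called lower under αMARCO in WT. H2-Eb2 had 21.2 and 10.1 CPM in WT control and 0.628 to 2.76 elsewhere. It was called in both comparisons, at 2.82 (adjusted p = 0.00629) between control genotypes and −3.62 (adjusted p = 0.0119) under αMARCO in WT. T cell markers summed to 95.5 and 111 CPM in WT control and 7.55 to 21.2 elsewhere, and 9 of 9 were called in both comparisons. B cell markers summed to 40.6 and 44.8 CPM in WT control and 7.25 to 22.4 elsewhere. Cd79b made up 36.7 and 41.2 CPM of the sum in WT control and 2.26 to 17.1 CPM elsewhere. The part of these cells in the H2-O and H2-Eb2 values was not tested.

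**Figure D5:**
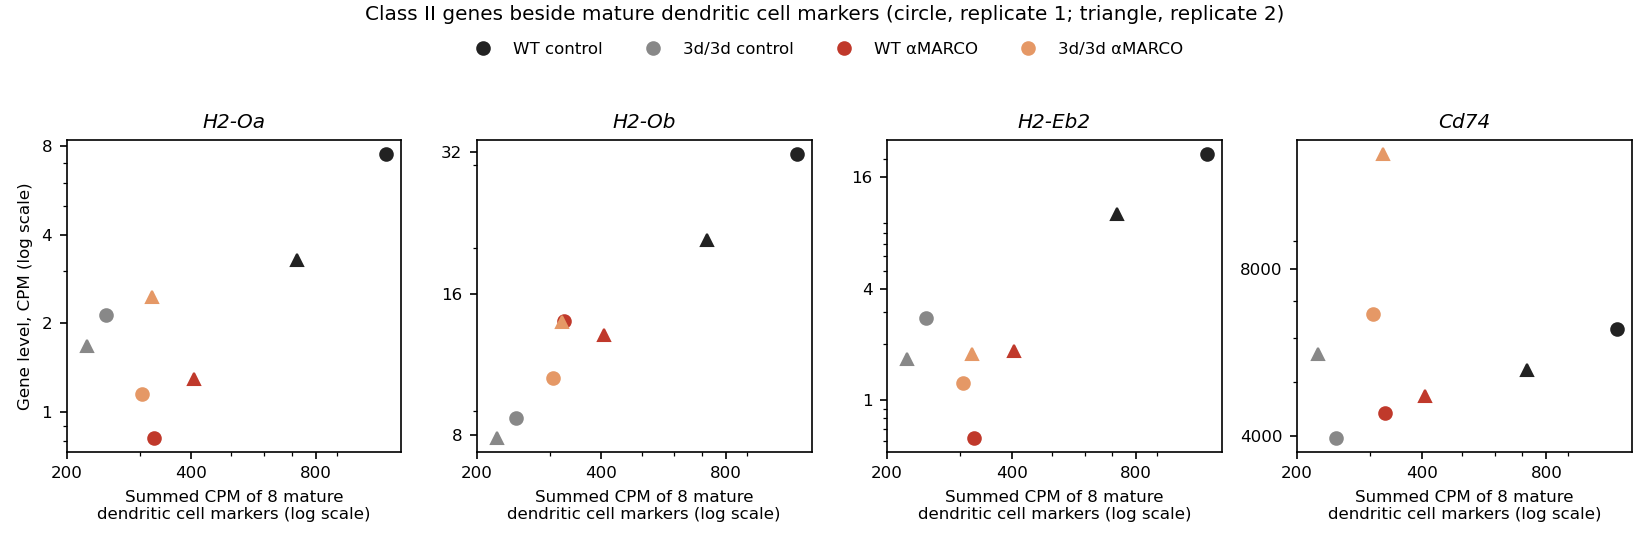
Level of H2-Oa, H2-Ob, H2-Eb2 and Cd74 in CPM (vertical log axes) against the summed CPM of 8 mature dendritic cell markers (horizontal log axis) in the 8 libraries, coloured by group, with circles for replicate 1 and triangles for replicate 2. The WT control libraries are highest on both axes for H2-Oa, H2-Ob and H2-Eb2. Cd74 is highest in 3d/3d αMARCO replicate 2, where the marker sum is 322 CPM and Cd83 makes up 252 CPM of it.

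Other genes of the pathway were read from lists. Of 12 factors that act on class II transcription, Irf1 (0.81, adjusted p = 0.0113) and Irf4 (1.22, adjusted p = 0.00427) were called higher in WT control than in 3d/3d control. The list's median log2 difference was 0.27 against −0.004 for all genes. Under αMARCO in WT only Irf4 of this list was called (−0.89, adjusted p = 0.00606).

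Of 10 genes for endosomal processing, Ctsh (0.68) and Cst3 (0.97) were called higher and Ctsl (−0.79) lower in WT control than in 3d/3d control. Cst3 encodes the cathepsin inhibitor cystatin C, and Ctsl the protease cathepsin L. Under αMARCO in WT, 3 of the 10 were called lower. These were Ctss (−0.64, adjusted p = 0.00139), the cathepsin that cleaves the invariant chain in antigen presenting cells, Ifi30 (−1.31, adjusted p = 0.00365), a thiol reductase of lysosomes, and Cst3 (−1.15, adjusted p = 0.000173). Ctss had 2806 and 2824 CPM in WT control and 1725 and 1887 in WT αMARCO, well apart.

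Of 10 genes for class II turnover and trafficking, Il10 (0.96) was called higher in WT control than in 3d/3d control and Cd63 (−0.67), a tetraspanin of late endosomes, lower under αMARCO in WT. Among 5 genes for CD74 ligands and co-receptors, Ddt (0.71) was called higher in WT control, while under αMARCO in WT Cxcr4 was called higher (0.65) and Cxcr2 lower, the latter on 2 and 5 counts against 46 and 10.

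Of 12 genes of the interferon gamma axis, Ifng, Socs1 (0.67), Gbp2 (0.78) and Igtp (0.60) were called higher in WT control than in 3d/3d control. Ifng had 7.96 and 7.98 CPM in WT control and at most 1.33 in any other library, and fell by 3.31 under αMARCO in WT (adjusted p = 0.00764), the only gene of the list called there. Ciita, a target of this cytokine, did not follow that order. Of the class II receptors on T cells, Cd4 was called lower in WT control than in 3d/3d control (−1.62, adjusted p = 6.54e-05). Both Cd4 (−1.29) and Lag3 (−1.51) were called lower under αMARCO in WT. In the 3d/3d controls Cd4 had 61.6 and 62.2 CPM, while the 9 T cell markers summed to 21.2 and 11.4 CPM. Those 9 markers were all called higher in WT control, opposite to Cd4. Which cells carried the Cd4 RNA was not tested. The medians of the 10 members and of all genes were 0.372 and −0.004 between control genotypes and −0.359 and −0.012 under αMARCO in WT. Genes under 2000 bases, as are all members but H2-Ob and Ciita, shifted in the same directions. Relative to each gene's mean log2 level, their median was 0.207 and 0.145 in WT control. It was −0.155 and −0.09 in 3d/3d control and −0.247 and −0.145 in WT αMARCO. The part of length in the members' medians was not tested beyond the length and GC correction. In the comparisons that included 3d/3d αMARCO no gene of these lists was called.

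The interval from H2-Oa to H2-Eb1 also holds 11 other genes, among them the class I peptide supply genes Psmb8, Psmb9, Tap1 and Tap2. The immunoproteasome subunits were called higher in WT control than in 3d/3d control, Psmb8 by 0.67 (adjusted p = 0.00189) and Psmb9 by 0.62 (adjusted p = 0.0029). Psmb8 was called lower under αMARCO in WT (−0.55, adjusted p = 0.000839) and Psmb9 passed the p-value but not the fold threshold (−0.46, adjusted p = 0.00302). Tap1 and Tap2, the transporter chains, differed by 0.48 and 0.43 between control genotypes (adjusted p = 0.00904 and 0.0115), under the fold threshold. Brd2, a bromodomain gene between H2-Oa and H2-DMa, differed by 0.30 (adjusted p = 0.0806). Gm15821 went the other way from Psmb8 and was called higher under αMARCO in WT (1.13, adjusted p = 0.0364). Its mean level was low, with 1.14 CPM in WT control and 2.49 in WT αMARCO. Gm20493, Gm20496 and Gm20513 were called in no comparison in which they were tested.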

How the data were processed

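Poly-A RNA-seq of sorted TAMs was analysed in 8 libraries, 2 per group, with groups taken from the labels. The authors deposited whole-number counts per gene, made with fastp, HISAT2 2.0.5 and featureCounts 1.5.0 on GRCm38; strand and multi-mapping settings are not given in the sources used here. The deposited tables also hold the authors' DESeq2 1.40.2 normalized counts (a signal scaled within each table), FPKM and gene lengths, and the authors' comparisons as log2 fold changes and p-values, whose values were not used. The 3 tables were joined by gene identifier: all 95230 counts given more than once were equal, and 11598 values missing from a table were set to 0.

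Counts were tested in R 4.3.3 with the edgeR 4.0.16 quasi-likelihood test (TMM scaling, filterByExpr, robust fit, two-sided), each pair of groups on its 4 libraries and the difference of αMARCO effects on all 8. Benjamini-Hochberg adjustment ran over all genes tested, and a call needed an adjusted p not above 0.05 and a log2 difference of 0.5 or more in size (1.41-fold). CPM used TMM sizes over 8 libraries, and RPKM divided CPM by gene length in kilobases. The scripts were tested on simulated data. Alternatives were DESeq2 1.42.0, its size factors, other count filters and thresholds, one model of all libraries, a replicate block, each library left out, and, chosen after seeing the data, length and GC correction. Members are named in full, listed genes where called, and neighbours where tested. The members and lists were chosen with earlier results of these data known. Chains were compared by transcript (GENCODE M21) in place of protein sequence.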

Additional observations from a re-analysis of the deposited data

Results flagged for a closer look

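For 8 of the 10 members both WT αMARCO values lay below the WT controls while both Unc93b1 3d/3d αMARCO values lay above the Unc93b1 3d/3d controls. The αMARCO effect in WT minus that in Unc93b1 3d/3d was −1.24 on the log2 scale for H2-Aa, −1.41 for H2-Ab1, −1.42 for H2-Eb1 and −1.37 for Cd74. It was −1.50 for H2-DMa, −1.34 for H2-DMb1, −1.49 for H2-DMb2 and −1.52 for H2-Ob. The test of the difference itself called none of them, with adjusted p-values of 0.3097 to 0.3176 by edgeR. Unc93b1 3d/3d αMARCO replicate 2, the library that stands apart from its replicate, was left out in a further fit. H2-DMb1 and H2-Ob were then −0.96 and −1.34 and were called, while H2-Aa, H2-Ab1, H2-Eb1, Cd74, H2-DMa and H2-DMb2 were −0.87, −0.80, −0.81, −0.84, −0.83 and −1.12 and were not (adjusted p 0.0501 to 0.129). The part of gene length, which moves with that library and with the groups, was not tested beyond the length and GC correction.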

How the results depend on the processing

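Of 630 values of the members under alternatives, 561 kept direction and side of the threshold, 9 lost a call, 53 gained one and 7 turned direction. In one model of all libraries, genes called were 364 between control genotypes, 164 under αMARCO in WT, 1 under αMARCO in 3d/3d and 108 between genotypes under αMARCO, and called members in the first comparisons were 1 and 0. At a log2 difference of at least 1, 951 and 1366 genes were called in the first comparisons, with 1 member in the second; by adjusted p alone the second had 5487 genes and 6 members. DESeq2 called 60 genes under αMARCO in 3d/3d, 214 between genotypes under αMARCO, and 211 genes with 2 members for the difference of effects. With no filter beyond 1 count these were 174 (1 member, H2-Eb1), 107 and 152 (2 members). Length and GC correction gave 1, 3 and 1 genes, and 1 member between control genotypes.

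Correlations of replicate deviations between groups ran from −0.16 to 0.264, and the main tests assumed no pairing by replicate number. These correlations cannot settle whether libraries of equal number shared a sort. With the replicate block, 2395 genes were called between control genotypes, 3086 under αMARCO in WT, 5 under αMARCO in 3d/3d and 97 between genotypes under αMARCO, and with length and GC correction the last 2 were 17 and 195. H2-DMb2 under αMARCO in WT was called with the block (−0.60, adjusted p = 0.00842), with the block and that correction (−0.51), and with no filter beyond 1 count (−0.64).

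Leaving out a library gave 1493 to 2232 genes and 1 to 5 members between control genotypes, 1940 to 3951 and 1 to 5 under αMARCO in WT, 1 to 5500 and 0 to 8 under αMARCO in 3d/3d, 17 to 6366 and 0 to 8 between genotypes under αMARCO, and 0 to 6440 and 0 to 9 for the difference of effects. The highest counts of the last 3 came without 3d/3d αMARCO replicate 1. Direction turned for Ciita between control genotypes (−0.19 to 0.27), under αMARCO in WT (−0.0017 to 0.20) and between genotypes under αMARCO (−0.45 to 0.0224), for H2-Oa under αMARCO in 3d/3d (−0.69 to 0.38), and for H2-Ob between genotypes under αMARCO (−0.0374 to 0.33), none of them called in full data. The cause of these shifts was not tested. With 2 libraries per group, and 17 to 142 counts of H2-Oa per library, small differences could not be resolved.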
